A study of Homo sapiens with 5 samples.

Results

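The integrins and laminins are the 35 genes named by Affymetrix probe sets as an integrin alpha subunit (18 genes), an integrin beta subunit (7 genes) or a laminin chain (10 genes), out of 19775 genes named by probe sets of 1 gene. They were chosen by symbol, are covered by 95 probe sets, and were each followed in the probe set of highest mean signal. The arrays are 5 Human Genome U133 Plus 2.0 arrays of IMR32, an established human neuroblastoma line with a stably integrated hairpin RNA against the MEIS1b isoform of the homeobox factor MEIS1, which doxycycline switches on. One array was made without doxycycline (0 h), and the other 4 after 24, 48, 96 or 192 h in its presence. All 5 come from cells that carry the hairpin. Untreated cells of a later time and cells with another hairpin are not among them. Each time is 1 array, so no difference between 2 arrays has a replicate check.

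Integrins are receptors of 1 alpha and 1 beta subunit that span the membrane and tie the matrix outside the cell to the actin skeleton inside it. The alpha subunit largely sets which ligand is bound, and the beta tail recruits talin, kindlin and the kinases of adhesion sites. Laminins are trimers of an alpha, a beta and a gamma chain that assemble into the sheet of basement membranes and are bound by integrins and by dystroglycan. Cells of the neural crest lineage, from which neuroblastoma arises, use both to migrate and to extend neurites.

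Of the 35 genes, 17 reached a mean MAS5 signal of 17.9, the median over all probe sets and arrays, and were tested: 7 alpha subunits, 4 beta subunits and 6 laminin chains. The other 18 stayed below that filter. ITGB3 (mean signal 23.6), ITGB4 (29.9) and ITGB8 (44.3) lay nearest above it, and ITGB5 (17.2), ITGA10 (15.5) and ITGA3 (13.8) nearest below. In the test, limma regressed log2(signal + 4.7) of 11944 genes on the time step (0 to 4), two-sided, with Benjamini-Hochberg adjustment and 0.05 as the threshold. A gene's fitted change is 4 times its slope per step, on that log2 scale, given with its standard error (SE) or its 95% interval. Both rest on the scatter of 5 single arrays around a straight line, which limma moderates with that of other genes of similar signal. The prior from the other genes had 9.07 degrees of freedom, and a gene's own residuals had 3. For LAMA1 the standard deviation was 0.057 before and 0.17 after moderation, and for LAMA5 0.42 and 0.26. Log2 ratios to 0 h are also of signal + 4.7, which understates the changes of dim genes.

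None of the 17 tested genes passed the threshold in either direction, where 3.47% of all tested genes passed (2.02% with a higher and 1.46% with a lower signal over the course). At an unadjusted p under 0.05 there were 6 of the 17 (35.3%, against 17.0% of all tested genes): LAMA5 with a positive fitted change (8.43% of all tested genes) and ITGAV, ITGA4, ITGA9, ITGB1 and LAMA1 with a negative one (8.55%). Without the 24 h array there were 3 of the 17, and 1750 of all 11944 tested genes. The order of the arrays was also permuted exactly for each of the 17 genes, two-sided and unadjusted. LAMA1 had a p of 0.0167, the smallest that 120 orders can give. Any gene that is lower at every step has this p, as 2.18% of all tested genes are. ITGA4 had 0.05, and the others lay above that. The permutation was not run for the other tested genes. The fitted change was negative for 12 of the 17 genes, where 49.7% of all tested genes had a negative one. On all 4 induced arrays 5 of the 17 were below 0 h (20.2% of all tested genes) and 1 was above it (21.6%). Their median fitted log2 change was -0.22 (-0.039 without the 192 h array), and that of all tested genes was 0.0027. In RNA from whole cultures, fewer cells of a type and less RNA per cell cannot be told apart.

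**Figure D1:**
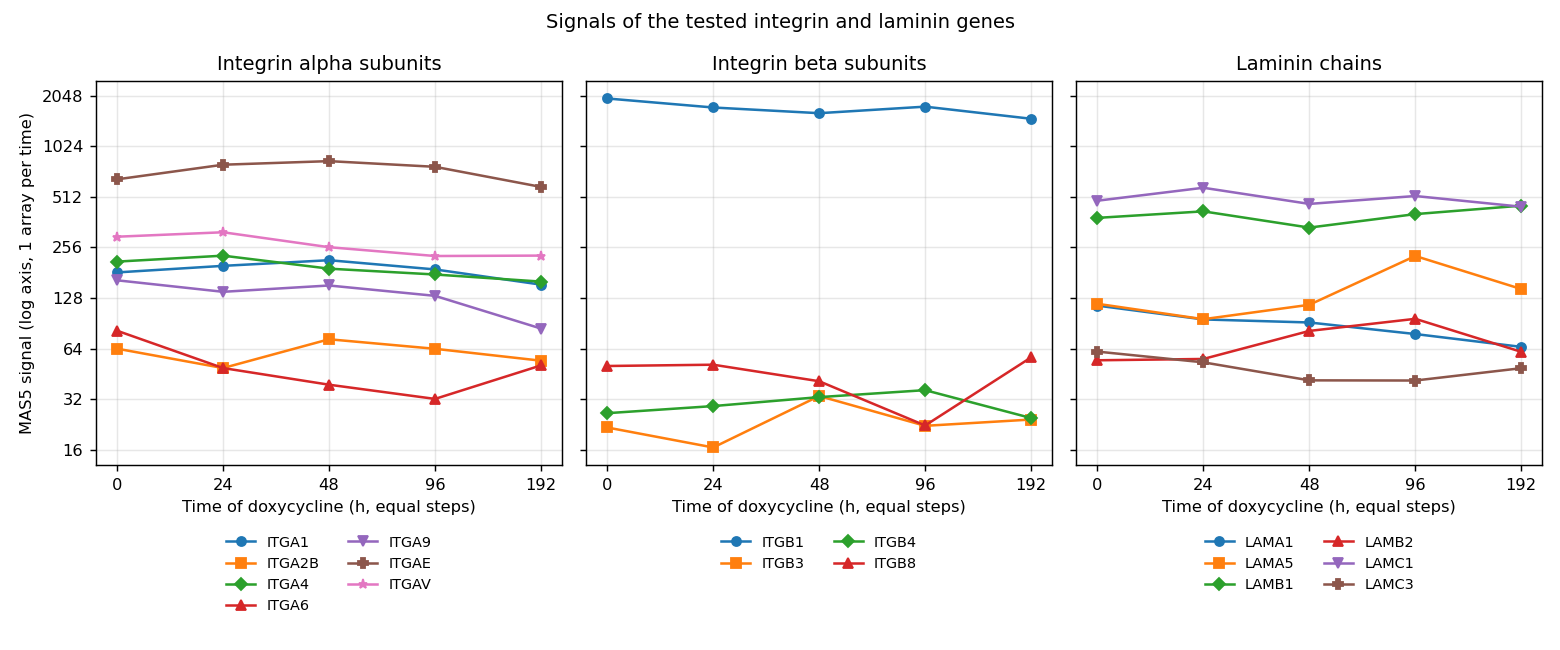
MAS5 signal (log axis) of the 17 tested genes on each of the 5 arrays, with alpha subunits, beta subunits and laminin chains in separate panels and the times drawn as equal steps. LAMA1 is lower at every step, ITGA6 is lowest at 96 h (32.1) and LAMA5 is highest at 96 h (227.6).

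Median signals and 3' to 5' signal ratios were close between the arrays, and spike-in levels were less so. The median signal of all probe sets lay between 16.0 and 19.0, and the 3' to 5' signal ratio between 1.02 and 1.08 for GAPDH and between 1.25 and 1.43 for ACTB. The mean log2 level of the 24 poly-A spike-in probe sets, relative to 0 h, was 0.10, -0.45, -0.61 and -0.25 at 24, 48, 96 and 192 h. MEIS1 itself read 786.6 at 192 h against 1052.0 at 0 h, and its fitted change was -0.33 ± 0.14 (SE, log2; adjusted p = 0.251 in limma). A second MEIS1 probe set had 443.8 at 192 h against 597.2 at 0 h. Which of them reads the targeted isoform is not given in the sources used here, so the MEIS1b transcript itself was not assessed. Of 8 sympathoadrenal markers named by probe sets 7 were above the filter, among them MYCN and GATA3, while none of 5 such blood markers was. The summed signal of the blood markers lay between 20.4 and 57.5 over the arrays, with CD14 between 1.0 and 1.5. The summed signals were 18.3 to 41.7 for Schwann cell, 38.9 to 78.9 for endothelial and 81.1 to 126.8 for epithelial markers. For the sympathoadrenal markers the sum was 9737.8 to 12845.1. Of 6 Schwann cell markers 3 were named by probe sets, and 1 of these was above the filter (ERBB3). So were 1 of 5 endothelial markers (CDH5) and 3 of 7 epithelial ones (KRT7, KRT8 and ESRP1).

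ITGA6 was the 1 tested gene of the alpha3, alpha6 and alpha7 group of laminin receptors. It encodes the alpha6 subunit, which pairs with beta1 or beta4. Its signal was 81.7, 49.0, 39.0, 32.1 and 50.8 at 0, 24, 48, 96 and 192 h. All 4 induced arrays were thus below the 0 h array, with the lowest value at 96 h and a higher one at 192 h. Relative to 0 h the log2 ratios were -0.69, -0.98, -1.23 and -0.64 at 24, 48, 96 and 192 h. Its other probe set past the filter had 81.7, 26.8, 53.6, 16.9 and 37.7. That probe set too was below 0 h on all 4 induced arrays and lowest at 96 h. From 24 to 48 h the 2 probe sets moved in opposite directions. A course that turns back is poorly described by a straight line, and ITGA6 had a fitted log2 change of -0.73 ± 0.39 (SE), an adjusted p of 0.372 in limma and a 95% interval from -1.57 to 0.11. With the 0 h array left out, ITGA6 had -0.042, and without the 192 h array it was -1.60 with an adjusted p of 0.0788. The spike-in level had its lowest value at 96 h too, and with it as a covariate the fitted change of ITGA6 was -0.25. ITGA6 and ITGB8 were the 2 tested members at least 2-fold from 0 h on any induced array (11.8% of them, against 7.32% of all tested genes). ITGA3 and ITGA7, the others of that group, had signals of 5.1 to 22.9 and 7.4 to 14.4 and were not tested.

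ITGA9 and ITGA4 encode the closely related alpha9 and alpha4 subunits, which bind fibronectin's alternatively spliced segments, tenascin, osteopontin and VCAM1. ITGA9 read 163.1, 139.3, 151.9, 131.8 and 84.2 at 0, 24, 48, 96 and 192 h. The 192 h array stood apart from the other 4. On the fitted line ITGA9 had -0.76 ± 0.23 (SE, log2), the lowest value among the tested members, and its adjusted p in limma was 0.105. ITGA9 passed under 2 of 16 alternative settings, with time in hours (-0.87, adjusted p = 0.0492) and with the spike-in covariate (-1.16, adjusted p = 0.0419), and the range of its adjusted p over all 16 was 0.0419 to 0.906. When the 192 h array was left out, ITGA9 had -0.31. The second ITGA9 probe set past the filter had 24.6, 37.5, 33.0, 26.3 and 27.3 and a fitted change of -0.076, so the low value at 192 h was seen in 1 of the 2 probe sets.

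ITGA4 had 210.7, 228.6, 191.3, 176.6 and 160.2 at 0, 24, 48, 96 and 192 h. After 24 h each array was lower than the one before. Its fitted log2 change was -0.45 ± 0.17 (SE), with an adjusted p of 0.201 in limma. All 4 ITGA4 probe sets past the filter had a negative fitted change, from -0.68 to -0.20.

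ITGAV, the alphaV subunit of receptors for vitronectin and fibronectin that recognise the RGD tripeptide, had a course like that of ITGA4. Its signal was 296.4, 315.0, 256.7, 227.5 and 228.8 at 0, 24, 48, 96 and 192 h, so 0 and 24 h lay above the 3 later arrays. For ITGAV the line gave a log2 change of -0.48 ± 0.16 (SE; 95% interval from -0.83 to -0.12; adjusted p = 0.145 in limma). ITGA2B, which encodes the platelet subunit alphaIIb, had 63.9, 49.0, 72.7, 63.8 and 54.2 at 0, 24, 48, 96 and 192 h and a fitted change of -0.035. Of the remaining RGD-binding subunits, ITGA5 (4.0 to 21.7) and ITGA8 (5.6 to 7.0) were below the filter.

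ITGA1, the alpha1 subunit of a collagen and laminin receptor, and ITGAE, the alphaE subunit known from lymphocytes that bind E-cadherin, shared another shape. ITGA1 had 181.7, 198.8, 214.8, 189.3 and 153.7 at 0, 24, 48, 96 and 192 h. ITGAE had 650.7, 794.9, 835.0, 772.5 and 586.5 at the same times. Both were highest at 48 h and lowest at 192 h, an order of extremes found in 6.33% of all tested genes. Their fitted log2 changes were -0.22 ± 0.20 and -0.14 ± 0.20 (SE), with limma adjusted p-values of 0.664 and 0.807. Without the 192 h array both changes were positive, 0.11 for ITGA1 and 0.32 for ITGAE. Of the 3 ITGA1 probe sets past the filter, 2 had a negative and 1 a positive fitted change. The other collagen-binding subunits ITGA2, ITGA10 and ITGA11 ranged from 3.2 to 19.1 and were not tested, and the leukocyte subunits ITGAD, ITGAL, ITGAM and ITGAX ranged from 2.2 to 24.1.

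The MEIS family binds DNA at the core TGACAG, and the windows from 250 bases before to 50 bases after each gene's start (RefSeq, GRCh38.p14) were searched for it on both strands. A window was held for 24 of the 35 genes and for 12 of the 17 tested ones. The 24 genes have 31 windows, of which 7 hold the core, where 15.8% of all 35116 windows hold it. Among the tested genes it was in a window of ITGA1 and of ITGAE. The windows of ITGA1 (chr5:52787666-52787965, plus strand) and ITGAE (chr17:3801139-3801438, minus strand) are shown because they hold the core, in capitals, and that of ITGA4 (chr2:181457136-181457435, plus strand) because it does not. The 3 were chosen after their signals were seen. Each runs 5′ to 3′ along its gene, and the core reads in the reverse direction in ITGA1, starting 95 bases before the gene's start, and forward in ITGAE, starting 192 bases before it.
ITGA1: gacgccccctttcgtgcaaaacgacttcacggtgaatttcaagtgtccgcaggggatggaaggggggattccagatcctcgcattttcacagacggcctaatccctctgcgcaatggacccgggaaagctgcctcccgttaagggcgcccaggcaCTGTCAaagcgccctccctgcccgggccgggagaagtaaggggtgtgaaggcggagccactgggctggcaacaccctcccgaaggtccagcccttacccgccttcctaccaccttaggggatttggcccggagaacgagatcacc
ITGAE: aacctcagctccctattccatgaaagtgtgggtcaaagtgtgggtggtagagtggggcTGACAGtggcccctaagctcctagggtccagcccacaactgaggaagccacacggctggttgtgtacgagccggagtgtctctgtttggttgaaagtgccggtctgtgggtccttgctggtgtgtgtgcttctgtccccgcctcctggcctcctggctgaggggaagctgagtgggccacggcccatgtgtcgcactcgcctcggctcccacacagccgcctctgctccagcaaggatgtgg
ITGA4: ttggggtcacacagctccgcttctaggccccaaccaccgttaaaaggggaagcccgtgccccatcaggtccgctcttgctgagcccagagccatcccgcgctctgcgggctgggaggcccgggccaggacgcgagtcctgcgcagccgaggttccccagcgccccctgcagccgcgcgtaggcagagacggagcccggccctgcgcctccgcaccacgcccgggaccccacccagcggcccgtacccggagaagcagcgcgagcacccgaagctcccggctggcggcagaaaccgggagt
A match describes these letters and does not show binding.

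**Figure D2:**
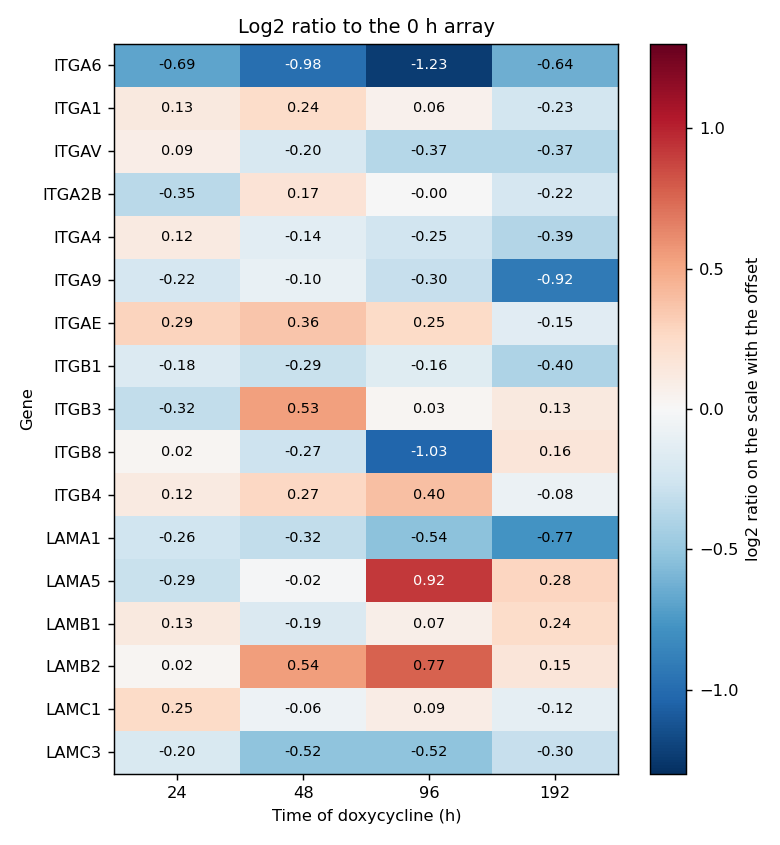
Log2 ratio of each induced array to the 0 h array (columns, h of doxycycline) for the 17 tested genes (rows), on the scale with the offset of 4.7, with blue below and red above 0 h. ITGA6, ITGA9, ITGB1, LAMA1 and LAMC3 are below 0 h on all 4 induced arrays, and LAMB2 is above it on all 4.

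ITGB1 encodes beta1, the subunit shared by many integrins, and it pairs with alpha1, alpha4, alpha6, alpha9 and alphaV among the tested subunits. Its signal was 1970.2, 1741.2, 1610.7, 1761.6 and 1492.2 at 0, 24, 48, 96 and 192 h. Every induced array was below the 0 h array, by 0.16 to 0.40 on the log2 scale, and the order was not steady. Its fitted log2 change was -0.31 ± 0.14 (SE; adjusted p = 0.275 in limma), and the 95% interval ran from -0.61 to -0.011, so a 2-fold change lay outside it. The 3 ITGB1 probe sets past the filter gave -0.41 to -0.26. Their signals at 192 h were 1492.2, 708.6 and 646.6, against 1970.2, 900.6 and 801.6 at 0 h.

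The alphaV partners ITGB3, ITGB5 and ITGB8 were dimmer than ITGB1. ITGB8, which with alphaV activates latent TGF-beta, had 50.4, 51.3, 40.9, 22.3 and 56.7 at 0, 24, 48, 96 and 192 h. The 96 h array alone was low, at a log2 ratio of -1.03, and the fitted change was -0.30 ± 0.45 (SE; limma adjusted p = 0.821). Without that array it was 0.12 for ITGB8. ITGB3, the beta3 subunit, had 21.7, 16.5, 33.4, 22.2 and 24.2 at 0, 24, 48, 96 and 192 h with no steady order. ITGB5 lay just under the filter, with 10.5, 21.1, 16.8, 14.2 and 23.4. ITGB4, the partner of alpha6 in hemidesmosomes, had 26.4, 29.1, 32.9, 36.2 and 24.7 and a fitted change of 0.045, which was negative with the array medians set equal (-0.041) and with quantile normalization (-0.033). The leukocyte subunits ITGB2 (1.6 to 16.8) and ITGB7 (1.5 to 5.0) were below the filter, as were all the blood markers.

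**Figure D3:**
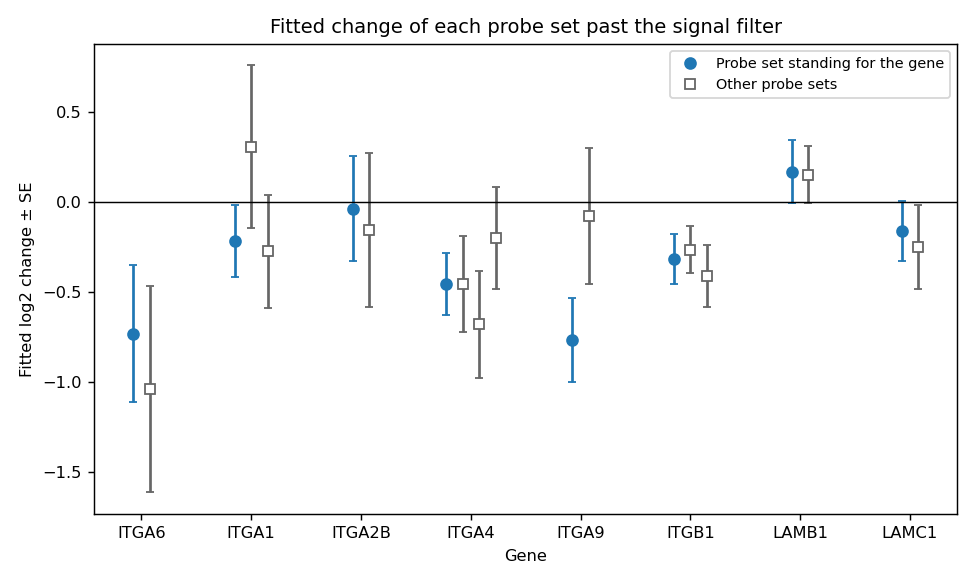
Fitted log2 change ± SE of every probe set past the signal filter for the 8 genes with more than 1 such probe set, the filled circle being the probe set that stands for the gene. In 7 of the 8 genes all probe sets have the same sign, and ITGA1 is the exception.

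Among the laminin alpha chains, LAMA1 and LAMA5 ran in different directions. LAMA1 encodes the alpha1 chain, typical of early embryonic basement membranes. It had 115.3, 95.4, 91.5, 78.1 and 65.5 at 0, 24, 48, 96 and 192 h. Each array was lower than the one before, an order that 2.18% of all tested genes had and no other tested member. The 192 h signal was 58.5% of that at 0 h on the scale with the offset. For LAMA1 the fitted log2 change was -0.73 ± 0.22 (SE), the 95% interval ran from -1.21 to -0.25 and the adjusted p in limma was 0.103. The change was negative under all 16 alternative settings, between -0.82 and -0.47, with adjusted p-values from 0.0601 to 0.868. LAMA1 had 1 probe set past the filter.

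LAMA5 encodes the alpha5 chain, the widespread chain of adult basement membranes. Its signal was 118.2, 95.7, 116.6, 227.6 and 144.7 at 0, 24, 48, 96 and 192 h. The 96 h array was the high one, with a log2 ratio to 0 h of 0.92, and 24 h was below 0 h. LAMA5 had a fitted log2 change of 0.71 ± 0.32 (SE; adjusted p = 0.292 in limma). With 1 array left out at a time, LAMA5 ranged from 0.39 (96 h) to 1.21 (192 h; adjusted p = 0.149), and it had 0.19 when the spike-in level was a covariate. LAMA2 (5.8 to 13.8) and LAMA4 (1.8 to 17.8) were below the filter.

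Of the beta chains, LAMB2, which encodes beta2, had its highest signal at 96 h as LAMA5 did. It read 54.5, 55.5, 81.5, 96.2 and 61.2 at 0, 24, 48, 96 and 192 h, all 4 induced arrays above 0 h. The slope gave LAMB2 a log2 change of 0.42 ± 0.33 (SE; limma adjusted p = 0.581), and with the spike-in covariate it was -0.18. It was 0.21 with the 96 h array left out and 1.13 with the 192 h array left out (adjusted p = 0.132). LAMB1, the beta1 chain, had 383.7, 419.5, 335.8, 404.0 and 453.5 at 0, 24, 48, 96 and 192 h, with a fitted change of 0.17 ± 0.17 (SE; adjusted p = 0.701) and 0.15 in its other probe set. LAMB3 (1.8 to 18.9) and LAMB4 (2.4 to 9.8) were below the filter.

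The gamma1 chain, which most laminin trimers contain, is encoded by LAMC1. It had 485.4, 579.7, 464.6, 517.7 and 447.1 at 0, 24, 48, 96 and 192 h, with log2 ratios to 0 h between -0.12 and 0.25. LAMC1 had a fitted log2 change of -0.16 ± 0.16 (SE; adjusted p = 0.705 in limma), with a 95% interval from -0.51 to 0.19. Leaving out single arrays gave LAMC1 from -0.38 (0 h) to -0.016 (192 h). LAMC3, the gamma3 chain, had 61.4, 53.0, 41.4, 41.3 and 48.9, all induced arrays below 0 h, and a fitted change of -0.37 ± 0.31 (SE; adjusted p = 0.619). LAMC3 had -0.76 with the 192 h array left out and -0.13 with the 0 h array left out. For 9 of the 17 tested members the 95% interval of the fitted change stayed within 2-fold in both directions, as it did for 72.6% of all tested genes. These were ITGA1, ITGAV, ITGA2B, ITGA4, ITGAE, ITGB1, ITGB4, LAMB1 and LAMC1. For the other 8 the interval reached past 2-fold, so these 5 arrays do not limit their change to less than that.

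**Figure D4:**
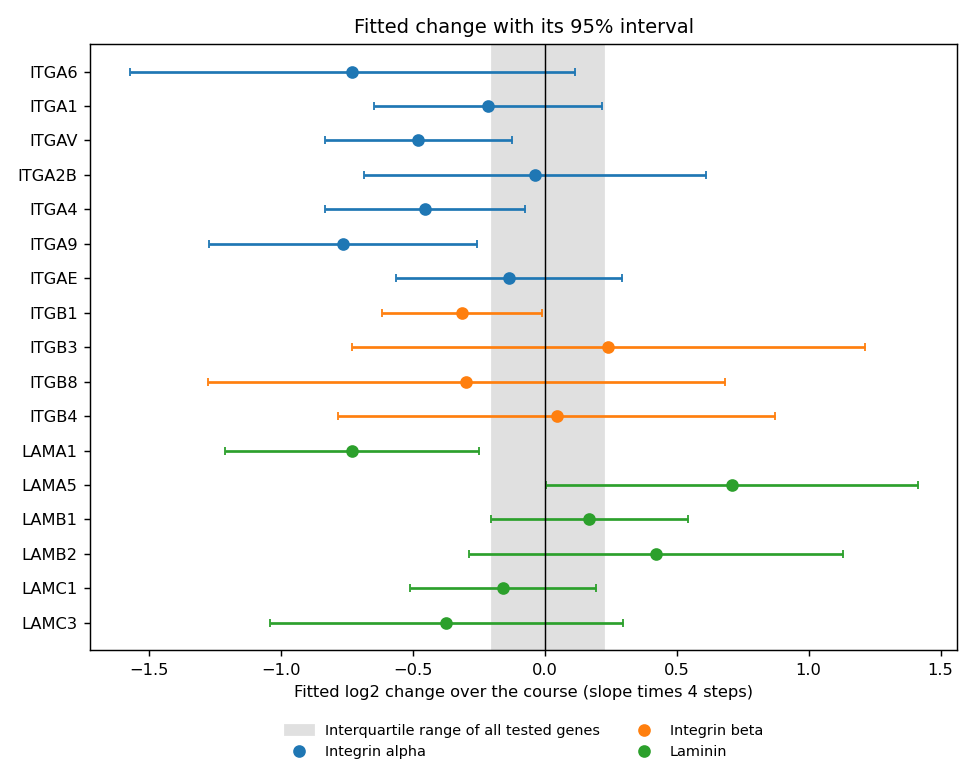
Fitted log2 change over the course (points) with its 95% interval (bars) for the 17 tested genes, ordered by role, with the interquartile range of all tested genes shaded (-0.20 to 0.23). All 7 alpha subunits lie below 0, where 49.7% of all tested genes do. The intervals of ITGA6, ITGA1, ITGA2B and ITGAE include 0. The laminin chains lie on both sides of 0, with LAMA1 at -0.73 and LAMA5 at 0.71.

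The other genes of integrin adhesion were read from 5 lists that hold 110 genes. Of these 72 were tested, and 2 rose and 5 fell (9.72% called, against 3.47% of all tested genes). The lists were chosen with earlier results of these data known, so the contrast of these shares is not a test. In the list of other basement membrane genes, 0 of 10 tested genes rose and 2 fell, with a median fitted log2 change of -0.38. NID1 encodes nidogen-1, which links the laminin gamma1 chain to collagen IV. It fell, with 289.7, 275.8, 238.3, 181.0 and 167.9 at 0, 24, 48, 96 and 192 h, lower at every step (fitted change -0.85 ± 0.17 SE; limma adjusted p = 0.0151). EGFLAM, which encodes pikachurin, a ligand of dystroglycan with laminin G-like domains, fell too, and had 51.7, 37.5, 38.9, 10.8 and 13.8 (-1.86 ± 0.46 SE; adjusted p = 0.0474). The collagen IV genes COL4A1 and COL4A2 had fitted changes of -0.54 (adjusted p = 0.0817) and -0.17 (0.587), and SPARC, a collagen-binding matrix protein, had -0.75 (0.0695). The highest value of the list, 0.97 (0.388), was that of SMOC1, a secreted SPARC relative.

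Of 13 tested other integrin ligands, 1 rose and 1 fell, with a median of -0.20. L1CAM, a neural adhesion molecule of the immunoglobulin family that binds integrins, rose and had 103.1, 116.1, 116.3, 239.8 and 266.4 at 0, 24, 48, 96 and 192 h (fitted log2 change 1.47 ± 0.25 SE; limma adjusted p = 0.00811). The type I collagen gene COL1A1 fell (-2.31 ± 0.31 SE). FN1, which encodes fibronectin, had 355.7, 320.1, 455.5, 449.8 and 251.2 and a fitted change of -0.20 (adjusted p = 0.804). The glycoprotein gene TNC, a ligand of alpha9, had -1.39 (adjusted p = 0.0583), and the collagen VI gene COL6A1 had 0.63 (adjusted p = 0.0589).

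Of 26 tested adaptors and kinases at integrin tails, 0 rose and 1 fell, with a median fitted log2 change of -0.19. TNS3, which encodes tensin-3, a link between beta tails and actin, had 181.7, 165.7, 135.7, 98.3 and 99.0 at 0, 24, 48, 96 and 192 h (-0.97 ± 0.20 SE; limma adjusted p = 0.0202). TLN1, FERMT2 and VCL encode talin-1, kindlin-2 and vinculin, which couple beta tails to actin. Their fitted changes were -0.80, -0.64 and -0.56, with adjusted p-values of 0.212, 0.0629 and 0.1. Their relatives TLN2 (talin-2) and FERMT1 (kindlin-1) had positive values, 0.52 and 0.13, as did the scaffold gene BCAR1 (0.64; adjusted p = 0.254). At 192 h TLN1 was at 43.7, FERMT2 at 366.2 and VCL at 426.9, against 76.1, 569.8 and 656.5 at 0 h. The focal adhesion kinase gene PTK2 had -0.30 and ILK had 0.13, and neither passed.

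Among 13 tested non-integrin laminin receptors and their partners, 0 rose and 1 fell, and the median was -0.09. This list holds 20 genes, of which 14 were named by probe sets. The dystroglycan gene DAG1 and the receptor genes BCAM and RPSA were among those not tested. The gene that fell was SDC2, which encodes the heparan sulfate proteoglycan syndecan-2 and read 1204.3 at 192 h against 1674.1 at 0 h (fitted log2 change -0.52 ± 0.13 SE; limma adjusted p = 0.045). DMD, the dystrophin gene, had -1.23 (adjusted p = 0.169), and B4GAT1, whose enzyme extends the laminin-binding glycan of dystroglycan, had 0.47 (adjusted p = 0.141). Among 10 tested membrane partners of integrins 1 rose and 0 fell, with a median of 0.15. TSPAN7, a tetraspanin, rose and had 139.8, 116.4, 141.3, 222.7 and 382.8 at 0, 24, 48, 96 and 192 h (1.50 ± 0.29 SE; adjusted p = 0.0151), and CD47, an integrin-associated protein, had 0.50 (adjusted p = 0.162). Of these 7 called genes COL1A1 passed without each array in turn. With the probe sets of each gene past the filter averaged, COL1A1 had -1.18 and passed. EGFLAM and SDC2 then did not pass (limma adjusted p = 0.0549 and 0.129), and the other called genes did. TSPAN7 did not pass with the 192 h array left out, where its change was 0.89. L1CAM did not pass there either, but its change was 1.42, close to the 1.47 of all 5 arrays. NID1 did not pass without the 0 h array (-0.996) or the 192 h array (-0.88). EGFLAM and TNS3 did not pass when the 0, 24, 96 or 192 h array was left out, and SDC2 with any of the 5 left out. Their changes then lay between -2.22 and -1.55, between -1.14 and -0.87 and between -0.59 and -0.48, in that order of genes. With the spike-in level as a covariate NID1, EGFLAM, TNS3 and SDC2 did not pass, so COL1A1 was the only called fall that still did.

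**Figure D5:**
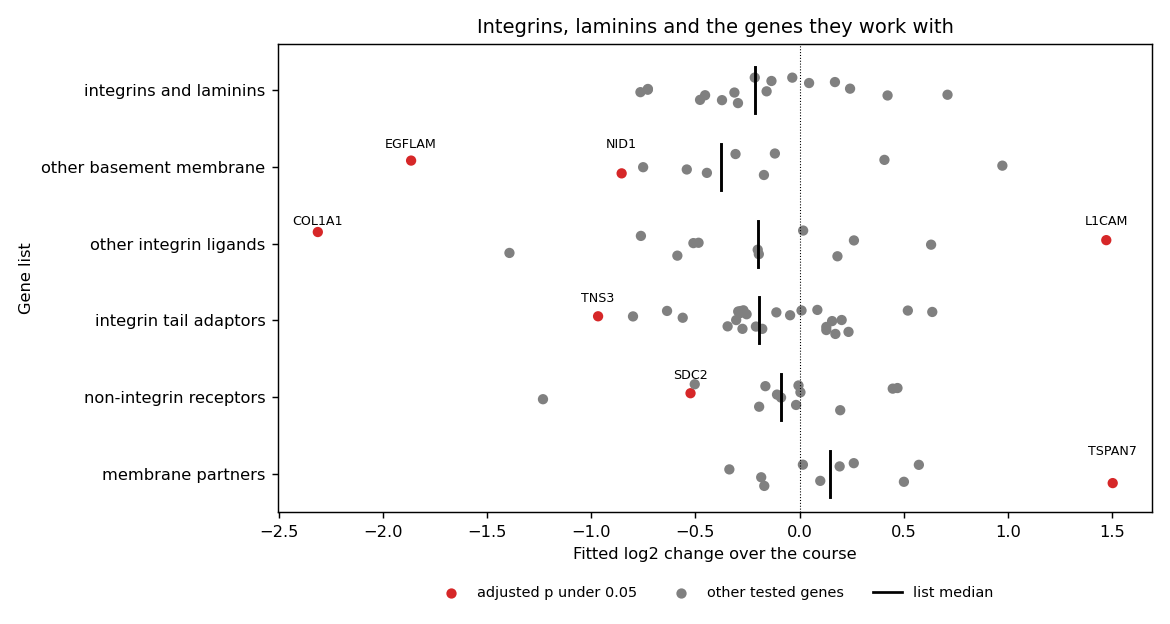
Fitted log2 change of each tested gene (points, red where the limma adjusted p was under 0.05) in the integrin and laminin family and in the 5 lists of genes they work with, with the list median as a bar. The family has no red point, and the 5 lists have 7 in all.

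Of 8 fibroblast markers 6 were tested and 2 fell, COL1A1 and the receptor gene PDGFRA (fitted log2 change -1.85; limma adjusted p = 0.00028). With the probe sets of each gene averaged, the change was smaller, -1.18 for COL1A1 and -1.17 for PDGFRA. The summed signal of the 8 was 1216.5, 1139.1, 969.0, 574.0 and 393.6 at 0, 24, 48, 96 and 192 h. These 2 genes gave 246.7 of it at 192 h, against 1041.7 at 0 h, and the other 6 gave 146.9 against 174.8. The defining fibroblast markers DCN (8.4 to 19.0) and LUM (4.7 to 12.7) were below the filter on average. This sum moved in the same direction as ITGA4, ITGA9, ITGAV, LAMA1, NID1 and TNS3, and its part in their values was not tested. CHGA, a sympathoadrenal marker, rose (1.04; adjusted p = 0.00833), as the 1 of 7 tested such markers that passed.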

How the data were processed

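Per the submitters' processing notes, the authors used MAS5 and GCOS (no versions named). The authors deposited log2 values, read here as log2 of the MAS5 signal, since 2 raised to each value was a multiple of 0.1 (within 0.01) for 100% of them. The floor (a signal of 1) and the whole-array scaling (trimmed mean signal 100.02 to 100.03) were read from the values. Between 5.34% and 8.15% of values lay at the floor. MAS5 makes low signals noisy, and the number of arrays limits the precision.

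The offset of 4.7 is the median of the arrays' lower quartiles. GEO's platform annotation names 1 gene for 41091 of 54675 probe sets and several for 1801, which were not used for genes. Looked up by identifier in RefSeq's GRCh38.p14 table, which held 41037, 0 symbols changed. ITGB1BP1, ITGB3BP, ITGBL1, antisense genes and pseudogenes are not subunits and were left out of the family. ITGB1BP1 was kept in the list of adaptors and kinases at integrin tails. The tool was limma 3.58.1 in R 4.3.3 (eBayes, trend=TRUE, prior degrees of freedom 9.07, residual 3), tested on simulated data first. Offsets, scalings, filters, time codings, a spike-in covariate, the mean of a gene's probe sets and leaving out each array were tried as alternatives. The members, lists and tests were chosen with earlier results of these data known. All tested members have their 5 signals given, and of the lists the genes past the threshold are named, with others chosen after their values were seen.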

Additional observations from a re-analysis of the deposited data

How the results depend on the processing

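No paired analysis was possible because each time point has 1 array. Genes past the threshold numbered 241 higher and 174 lower, and 16 and 5 with no filter on low signals, 118 and 112 with the spike-in covariate, and 121 to 249 and 69 to 167 without each array in turn. With array medians set equal 45.4% of called genes were higher, against 58.1% as reported. The count of integrin and laminin members past the threshold, 0, was 1 (ITGA9) with time in hours or the spike-in covariate, and 0 without each array in turn and under the other settings. The number of called genes in the 5 lists, 7, became 0 with no filter on low signals, 4 with the spike-in covariate, and 1 to 7 without each array in turn. These were not always the same genes. With the spike-in covariate NID1, EGFLAM, TNS3 and SDC2 did not pass (limma adjusted p = 0.0998, 0.212, 0.149 and 0.141). COL1A1, L1CAM and TSPAN7 did, and the list of other integrin ligands then had 3 called genes instead of 2. The 2 member values at least 2-fold from 0 h became 0 with an offset 4 times larger. A fit of the induced arrays against 0 h, chosen after seeing the data, called 0 genes higher, 0 lower and 0 in the lists (689 of 11944 genes and 1 of the 17 members, ITGA6, at an unadjusted p under 0.05). In it the change was 0.046 for ITGA1, 0.19 for ITGAE and 0.042 for LAMC1.

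Of 270 fits of members under alternatives, 18 turned the sign, all of changes that did not pass, and the cause was not tested. Without each array in turn the change ranged from -0.51 to 0.11 for ITGA1, from -0.20 to 0.21 for ITGA2B, from -0.57 to 0.32 for ITGAE, from -1.35 to 0.12 for ITGB8, from -0.19 to 0.54 for ITGB4 and from -0.039 to 0.24 for LAMB1. With the spike-in covariate it was -0.12 for ITGB3, 0.52 for ITGB8, -0.30 for ITGB4 and -0.18 for LAMB2. ITGB4 had -0.041 with array medians set equal, -0.033 with quantile normalization and -0.10 with time in hours.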

Other observations

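Some probe sets near the family were not counted in it. One probe set named for both LAMA5 and its antisense gene read 34.3, 20.3, 46.3, 41.4 and 39.6 at 0, 24, 48, 96 and 192 h, without the high value at 96 h of the LAMA5 probe set. The 4 probe sets that name ITGB6 together with a non-coding gene lay between 1.0 and 14.2. Of genes whose symbols resemble an integrin's, ITGB3BP, which encodes a centromere protein, had 1347.7, 1323.1, 1295.4, 1139.5 and 1079.0 at 0, 24, 48, 96 and 192 h, lower at every step, and its fitted change was -0.34 ± 0.13 (SE, log2; adjusted p = 0.191 in limma). ITGB1BP1, a binding partner of the beta1 tail, had 311.7, 331.5, 276.9, 312.4 and 323.6 and a fitted change of 0.0089. It is 1 of the 26 tested adaptors and kinases at integrin tails. The transcript that starts divergently from ITGB1, ITGB1-DT, had 19.8, 15.9, 20.3, 33.6 and 21.0.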
